A study of Mus musculus with 6 samples.

Results

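The sarcomeric myosin heavy chains are the motor proteins of the thick filament in striated muscle. The genes described here are Myh4, Myh1, Myh2, Myh7, Myh3 and Myh8, which were picked out of the deposited count table by their symbols. All 6 of them were among its 13226 genes. They were measured by RNA-sequencing of polyadenylated RNA from whole tibialis anterior (TA) muscle, a fast muscle of the lower leg, in male C57BL/6 mice treated at 8 weeks of age. One group of 3 muscles had received AAV6:Yap-shRNA, an adeno-associated viral vector that carries a short hairpin RNA against Yap, by injection into the muscle. The other group of 3 muscles had received a control vector, which the sample titles call empty and the vector field calls AAV6:LacZ-shRNA, and which is called control here. Muscles were taken 7 days after injection. Both groups lay in the same 3 animals, 1 treated leg against the other, but the labels do not state that the replicate number is the animal. The vector that carried the Yap hairpin also had a CMV promoter and eGFP, and whole muscle holds every cell type of the tissue, so a lower level of a transcript cannot be told apart from fewer cells that make it.

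Each myosin heavy chain has an ATP-splitting head, which pulls on actin, and a coiled-coil tail, which packs into the filament. Adult mouse limb fibres are typed by the chain they contain: type 2B fibres by Myh4, type 2X by Myh1, type 2A by Myh2 and slow type 1 fibres by Myh7, which is also the beta chain of the heart. Myh3 (embryonic) and Myh8 (perinatal) are made in developing muscle and again in regenerating fibres, and are largely replaced by the adult chains as fibres mature. The question the samples address is whether the make-up of these chains differed between muscles with and without knockdown of Yap.

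On build GRCm38, 5 of the 6 genes lay side by side on the plus strand of chromosome 11, in the order Myh3 (chr11:67078300-67102291), Myh2 (chr11:67171027-67197517), Myh1 (chr11:67200052-67224575), Myh4 (chr11:67238029-67260446) and Myh8 (chr11:67277124-67308634). Myh7 lay apart from them on the minus strand of chromosome 14 (chr14:54970684-54994626). In the GENCODE annotation their principal transcripts had 39 to 41 exons, and their coding sequences were between 5805 and 5826 bases long. Because these genes belong to one family, their start regions were set side by side. The 250 bases before the RefSeq start of each gene (GRCm38.p6) are shown to make visible which letters the neighbouring genes share. Capitals mark a run common to several of the genes, the MCAT motif CATTCC in either direction (the site known for Tead factors, the DNA-binding partners of Yap) and the TATA box TATAAA on the gene's own strand.
Myh4: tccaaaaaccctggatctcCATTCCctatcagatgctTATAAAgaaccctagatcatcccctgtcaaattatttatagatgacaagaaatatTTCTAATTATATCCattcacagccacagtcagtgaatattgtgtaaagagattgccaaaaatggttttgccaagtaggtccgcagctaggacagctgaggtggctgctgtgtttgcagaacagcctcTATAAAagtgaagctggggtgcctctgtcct
Myh1: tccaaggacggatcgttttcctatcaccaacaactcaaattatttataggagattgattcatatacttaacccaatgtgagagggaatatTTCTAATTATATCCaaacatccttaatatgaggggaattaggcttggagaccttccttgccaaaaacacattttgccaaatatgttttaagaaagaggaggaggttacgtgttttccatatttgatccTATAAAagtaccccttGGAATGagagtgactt
Myh2: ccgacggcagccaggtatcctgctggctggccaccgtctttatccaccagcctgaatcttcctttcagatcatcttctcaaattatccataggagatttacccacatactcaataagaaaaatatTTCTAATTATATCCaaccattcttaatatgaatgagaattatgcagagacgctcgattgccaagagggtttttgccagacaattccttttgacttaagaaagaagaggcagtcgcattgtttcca
Myh8: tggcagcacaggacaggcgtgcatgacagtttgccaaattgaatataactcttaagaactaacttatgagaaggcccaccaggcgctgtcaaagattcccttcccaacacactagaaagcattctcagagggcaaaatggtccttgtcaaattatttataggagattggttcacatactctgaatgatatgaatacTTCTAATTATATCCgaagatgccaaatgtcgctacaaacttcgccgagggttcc
Myh3: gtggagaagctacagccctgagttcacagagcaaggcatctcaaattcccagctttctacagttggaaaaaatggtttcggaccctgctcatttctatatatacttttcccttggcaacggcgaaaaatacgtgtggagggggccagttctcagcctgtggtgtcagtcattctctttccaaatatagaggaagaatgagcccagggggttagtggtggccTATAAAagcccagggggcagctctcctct
Myh7: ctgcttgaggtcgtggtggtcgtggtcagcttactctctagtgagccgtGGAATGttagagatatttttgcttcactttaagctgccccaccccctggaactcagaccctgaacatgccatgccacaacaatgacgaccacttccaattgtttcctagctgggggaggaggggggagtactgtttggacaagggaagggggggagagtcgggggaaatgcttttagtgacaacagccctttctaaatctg

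Each sequence is read 5′ to 3′ on the strand of its gene. The windows were chr11:67237562-67237811 for Myh4, chr11:67199852-67200101 for Myh1, chr11:67170777-67171026 for Myh2, chr11:67276874-67277123 for Myh8, chr11:67078050-67078299 for Myh3 and chr14:54994627-54994876, on the minus strand, for Myh7. The run of 14 bases, TTCTAATTATATCC, was taken from the windows of Myh4, Myh1, Myh2 and Myh8, as the longest run common to them. Of the 32851 windows of the same length in the mouse table, searched on both strands, these 4 were the ones that held it (0.0122%). Because the run was taken from these 4 windows, that they hold it is not a separate result. It lay 158 to 145 bases before the RefSeq start of Myh4 and 160 to 147 bases before that of Myh1. All distances given here are from the RefSeq start. That start was 67237812 for Myh4, before its GENCODE start of 67238029, and 67200102 for Myh1, after its GENCODE start of 67200052. The like distance of the run in Myh4 and Myh1 therefore depends on the annotation used. For the other genes the starts were the same in both. In Myh2 the run lay 125 to 112 bases before the start, and in Myh8 it lay nearest, 54 to 41 bases before the start. The windows of Myh3 and Myh7 did not hold these letters.

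The MCAT letters were in 3 of the 6 windows, against 12.6% of all windows. They lay 231 to 226 bases before the start of Myh4 and, on the reverse strand, 16 to 11 bases before that of Myh1 and 201 to 196 bases before that of Myh7. A TATA box lay 31 to 26 bases before the start of Myh4, 32 to 27 before that of Myh1 and 29 to 24 before that of Myh3, and Myh4 had a further one 213 to 208 bases before its start. Counting both strands, TATAAA was in 4 of the 6 windows, Myh8 having it on the reverse strand alone, and in 12.4% of all windows. The E-box letters CANNTG, known as the site of myogenic factors such as MyoD, were in 4 of the 6 windows (Myh3, Myh4, Myh7 and Myh8) and in 66.2% of all. A MEF2 motif, which takes in the reverse-strand TATAAA letters in each of the genes that hold it, was found in Myh1, Myh4 and Myh8 and in 2.92% of all windows. A CArG motif, the site of serum response factor, was in the window of Myh4 and in 1.47% of all windows. A match of letters is a description of the window and says nothing of binding.

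**Figure D1:**
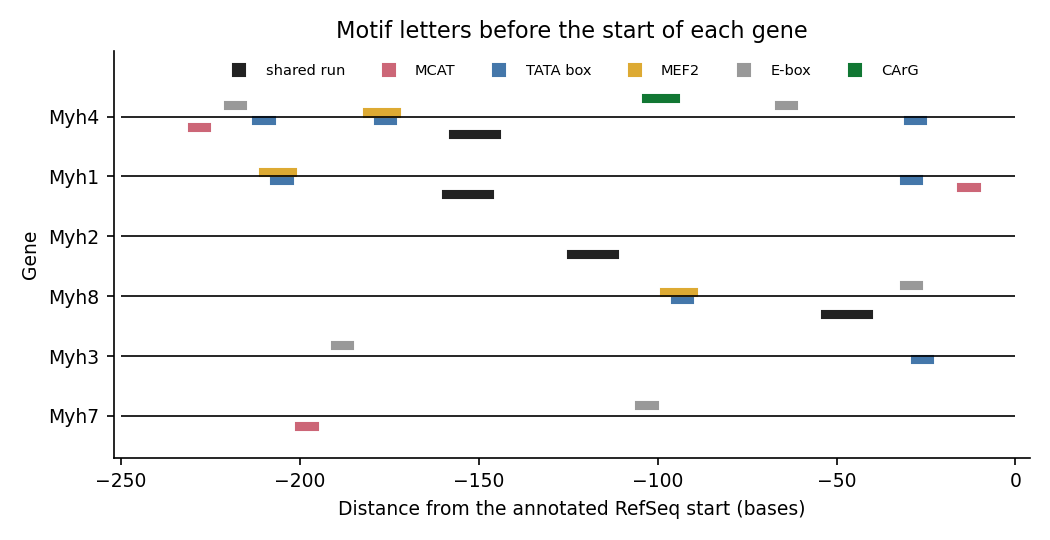
Position of the searched motifs and of the shared run in the 250 bases before the RefSeq start of each gene, on either strand, as the distance in bases from the start (x axis, negative before it), with 1 row for each gene. The shared run was not chosen beforehand but taken from the windows of Myh4, Myh1, Myh2 and Myh8. From the RefSeq start, which is not the GENCODE start in Myh4 and Myh1, the shared run of 14 bases stands 158 and 160 bases away at its far end in these genes. It stands nearer in Myh2 (125) and nearest in Myh8 (54).

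The libraries held between 11987167 and 12710393 counts. Yap1, the targeted gene, had 915, 781 and 833 reads in the control muscles and 381, 311 and 495 in the Yap-shRNA muscles. Every Yap-shRNA muscle lay below every control muscle, at 46.5% of the control mean (log2 fold change -1.10, standard error 0.161; two-sided exact permutation p = 0.10, below which 3 against 3 cannot go). By edgeR's quasi-likelihood test over all genes the adjusted p of Yap1 was 0.424, while DESeq2 and the edgeR likelihood ratio test each called it. None of the 13226 genes passed an adjusted p of 0.05 by that test (0% called), 218 had an unadjusted p below 0.05, and DESeq2 called 5 genes and limma-voom none. The 8 marker genes of adult skeletal muscle fibre, which include Myh4, were at high levels in every library, from 152183 to 179853 CPM (reads of a gene relative to the size of its library, scaled by TMM) in sum, so the label of skeletal muscle held. Which muscle the RNA came from was not tested.

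Myosin heavy chain transcripts made up a like part of every library. The 6 genes took 3.72, 3.99 and 4.01% of all counts in the control muscles and 3.65, 3.88 and 4.11% in the Yap-shRNA muscles. The highest and the lowest of these values were both from Yap-shRNA muscles, and the groups overlapped. Myh4 was the third most counted gene of its library in 5 of the libraries and the fourth in Yap-shRNA 1. Myh1 ranked between 23 and 26, and Myh2 between 219 and 349.

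Per kilobase of exon, which allows genes to be compared, the levels fell in a steep order from Myh4 over Myh1 to Myh2, with the other chains far below. Myh4 stood at 5561 ± 472 CPM per kilobase in control muscles (SD, n = 3) and at 5469 ± 396 in Yap-shRNA muscles. Myh1 stood at 870 ± 127 and 851 ± 149, and Myh2 at 45.4 ± 11.4 and 45.8 ± 3.11. These 3 adult fast chains did not overlap each other in any library of either group. Myh3 stood at 1.07 ± 1.02 in control and 1.18 ± 1.41 in Yap-shRNA muscles, against 0.968 ± 0.631 and 0.649 ± 0.456 for Myh8, so these neighbours did not differ beyond their spread. Their order also turned with the length used, since the annotated exons of Myh8 span 11772 bases against a coding length of 5811, and per kilobase of coding sequence Myh8 (1.96 ± 1.28 in control) was above Myh3 (1.12 ± 1.06). Myh7 was the lowest of the 6 in each library, at 0.195 ± 0.0245 in control and 0.209 ± 0.141 in Yap-shRNA muscles, and its range over libraries overlapped that of Myh8.

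**Figure D2:**
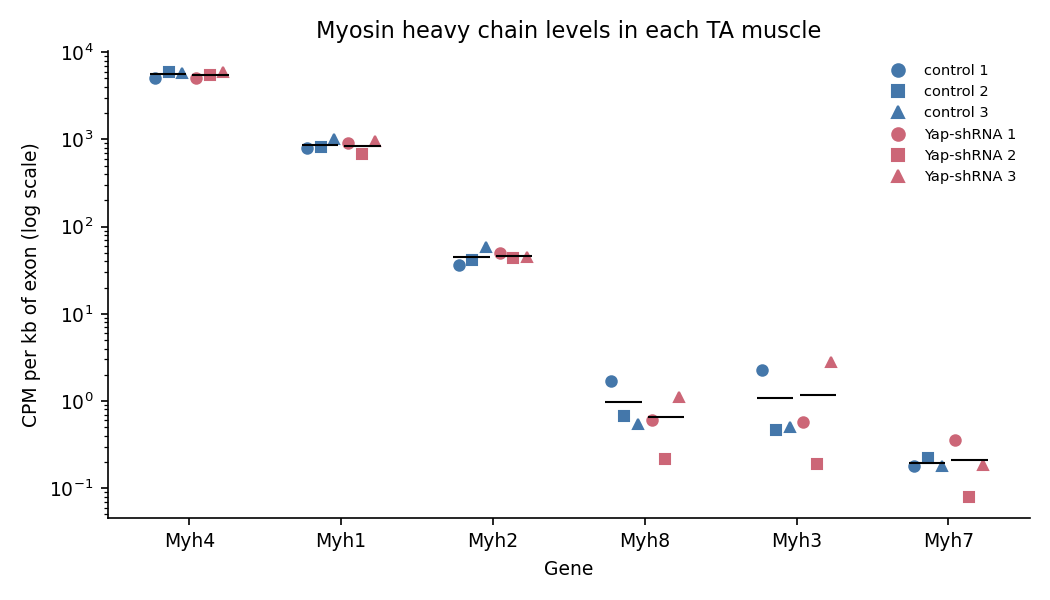
Level of each myosin heavy chain in TMM-scaled CPM per kilobase of exon on a log axis, with 1 point for each of the 3 control (blue) and 3 Yap-shRNA (red) muscles, a shape for each replicate number and a line at the group mean. Myh4, Myh1 and Myh2 are apart from each other in all libraries, while Myh3 and Myh8 spread over a wide range in both groups.

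Myh4, the type 2B chain, gave 388750, 426843 and 419529 reads in control muscles 1 to 3 and 363798, 428467 and 442427 in Yap-shRNA muscles 1 to 3. Scaled to the library these were 30258, 35689 and 34424 CPM in control and 30520, 32899 and 35281 CPM in Yap-shRNA muscles. The lowest muscle of each group was its replicate 1, and the groups overlapped. The mean was 33457 ± 2842 CPM in control and 32900 ± 2381 in Yap-shRNA muscles, or 98.3% of control. Its log2 fold change was -0.02 (95% interval -0.340 to 0.292; edgeR adjusted p = 1.000).

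Myh1, the type 2X chain, gave 64211, 61362 and 78683 reads in control and 69723, 56214 and 75861 reads in Yap-shRNA muscles. In CPM it stood at 4998, 5130 and 6456 in control and at 5849, 4316 and 6050 in Yap-shRNA muscles. The highest library was control 3 and the lowest Yap-shRNA 2, with the others of both groups between them. The means were 5528 ± 806 and 5405 ± 948 CPM, the latter 97.8% of the former, and the log2 fold change was -0.03 (95% interval -0.394 to 0.329; edgeR adjusted p = 1.000). An antisense gene, Myhas, overlaps Myh1 and is not among the deposited genes, so its reads cannot be told apart from those of Myh1 with certainty.

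Myh2, the type 2A chain, gave 3336, 3563 and 5061 reads in control and 4189, 4014 and 4028 reads in Yap-shRNA muscles. In CPM it stood at 259.7, 297.9 and 415.3 in control and at 351.4, 308.2 and 321.2 in Yap-shRNA muscles. All Yap-shRNA muscles thus lay inside the range of the control muscles, of which control 3 was the highest. The means were 324 ± 81.1 and 327 ± 22.2 CPM, and the log2 fold change was 0.01 (95% interval -0.347 to 0.370; edgeR adjusted p = 1.000). An antisense gene, 9430073C21Rik, overlaps Myh2 and was counted in the same table at 1.99 to 4.27 CPM. Whether counting used the strand is not given in the sources used here, so reads of Myh2 and of this gene cannot be told apart with certainty.

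Myh7, the slow chain, was counted in few reads, 20, 23 and 19 in control and 37, 9 and 20 in Yap-shRNA muscles. In CPM it stood at 1.557, 1.923 and 1.559 in control and at 3.104, 0.691 and 1.595 in Yap-shRNA muscles. The highest and the lowest library were both Yap-shRNA muscles, and the control muscles lay close together between them. The log2 fold change was 0.08 with a 95% interval from -0.954 to 1.107 (edgeR adjusted p = 1.000). Myh7 overlaps several antisense genes that are not in the table.

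The chains gave intervals of unlike width. The 95% intervals of Myh4, Myh1 and Myh2 lay between -0.394 and 0.370 on the log2 scale, while those of Myh7, Myh8 and Myh3 were wider, that of Myh3 the widest of the 6. None of the 6 genes was called by edgeR's quasi-likelihood test or had an unadjusted p below 0.05, and the same held with DESeq2, limma-voom and the edgeR likelihood ratio test. The groups overlapped in all 6 genes, against 5.27% of all genes tested in which they did not. Of the 6, 3 had a positive and 3 a negative log2 fold change, and over all genes 6457 were higher and 6769 lower.

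**Figure D3:**
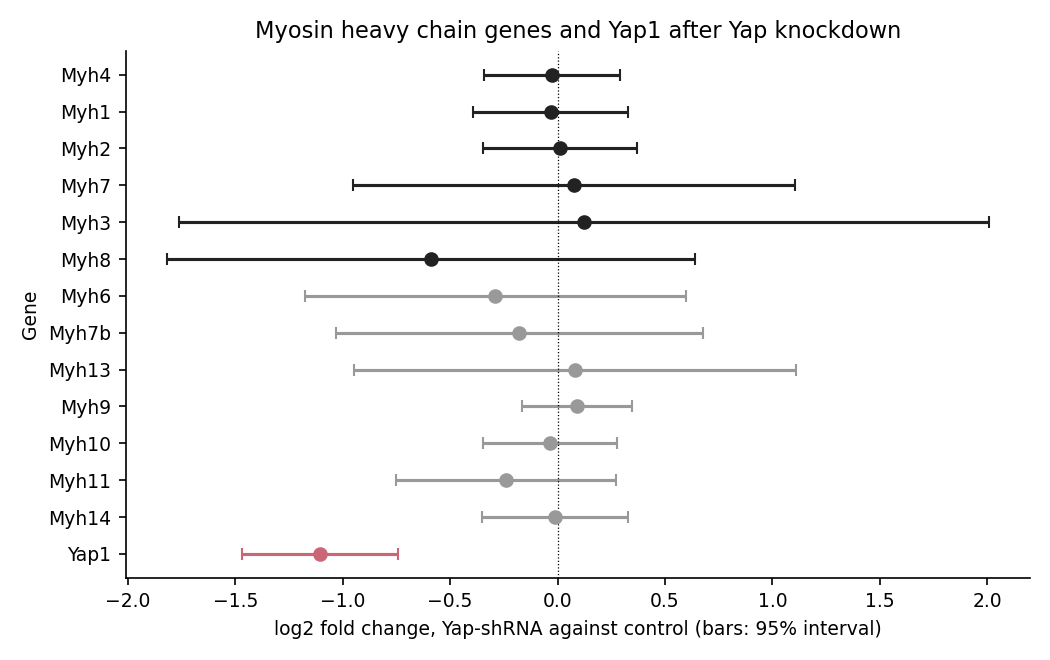
Log2 fold change (x axis), Yap-shRNA against control, with its 95% interval from edgeR, for the 6 myosin heavy chains (black), the other 7 in the table (grey) and Yap1 (red). Every myosin interval spans 0, and among the 6 chains in black that of Myh4 (-0.340 to 0.292) is the narrowest and that of Myh3 (-1.762 to 2.007) the widest, whereas that of Yap1 lies from -1.468 to -0.741.

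As a share of all myosin heavy chain reads of a library, which needs no scaling between libraries, Myh4 took 85.11, 86.77 and 83.34% in control and 83.08, 87.67 and 84.64% in Yap-shRNA muscles. Myh1 took 14.06, 12.47 and 15.63% in control and 15.92, 11.50 and 14.51% in Yap-shRNA muscles. The share of Myh1 was high where that of Myh4 was low, as it must be when both fill nearly the whole. Yap-shRNA 2 had the most Myh4 and the least Myh1, and Yap-shRNA 1 the reverse. The mean share of Myh4 was 85.07 ± 1.72% in control and 85.13 ± 2.33% in Yap-shRNA muscles, a difference of 0.0558 percentage points (exact permutation test, two-sided, p = 1.0). That of Myh1 was 14.05 ± 1.58% and 13.98 ± 2.26%, a difference of -0.0749 points (exact permutation p = 1.0).

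Myh2 took 0.730, 0.724 and 1.005% of the myosin heavy chain reads in control and 0.957, 0.821 and 0.771% in Yap-shRNA muscles. The means were 0.820 ± 0.161% and 0.850 ± 0.0962%, and the difference was 0.0295 points (exact permutation p = 0.80). The remaining chains were far rarer in every library. Myh8 took 0.0560, 0.0191 and 0.0155% in control and 0.0194, 0.00675 and 0.0318% in Yap-shRNA muscles, and Myh3 took 0.0383, 0.00691 and 0.00735% and 0.00936, 0.00307 and 0.0406%. Myh7 took 0.00438, 0.00468 and 0.00377% in control and 0.00845, 0.00184 and 0.00383% in Yap-shRNA muscles. None of these 3 small shares separated the groups, with differences of -0.0109 points for Myh8 (exact permutation p = 0.70), 1.38e-04 for Myh3 (p = 1.0) and 4.30e-04 for Myh7 (p = 0.90).

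The spread of these shares between muscles was larger than the counting error. For Myh1 the 95% Wilson interval of the share was 15.82 to 16.03% in Yap-shRNA 1 and 11.41 to 11.59% in Yap-shRNA 2, so each of these shares lay far outside the interval of the other. For Myh7 the interval was wide in relation to the share, from 9.69e-04 to 0.00350% in Yap-shRNA 2 and from 0.00613 to 0.0116% in Yap-shRNA 1. These intervals cover counting error only.

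**Figure D4:**
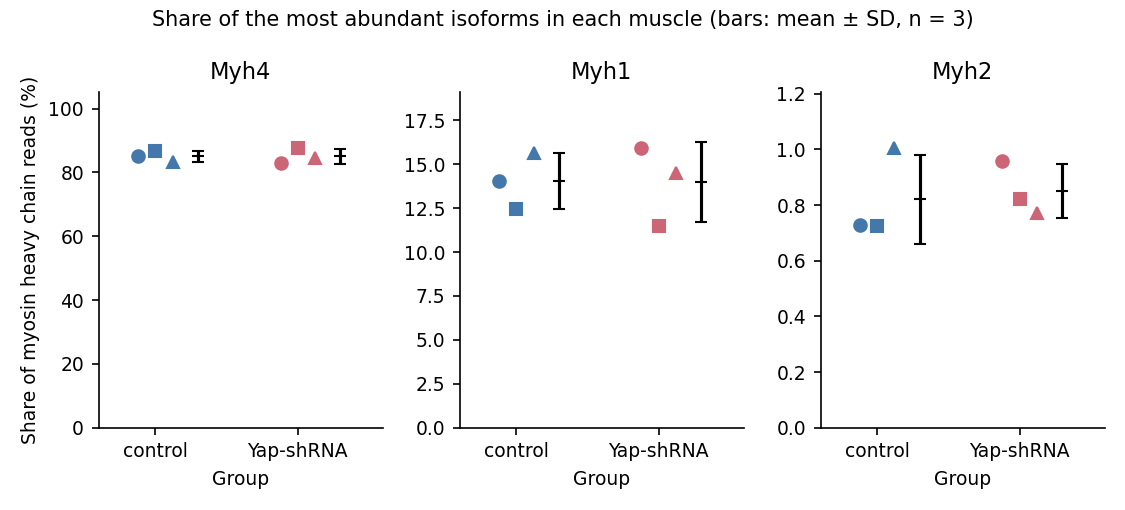
Share (percent, y axis from 0, a scale for each panel) of Myh4, Myh1 and Myh2 in the myosin heavy chain reads of each of the 3 control (blue) and 3 Yap-shRNA (red) muscles, with a shape for each replicate number and bars at the mean ± SD. Myh4 takes 83.08 to 87.67% and Myh1 11.50 to 15.92%, with the ranges of control and Yap-shRNA muscles overlapping in each panel.

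Ratios within a library gave the same picture for neighbours in the order of fibre types. For every 100 reads of Myh4, control muscles had 16.5, 14.4 and 18.8 reads of Myh1 and Yap-shRNA muscles had 19.2, 13.1 and 17.1. For every 100 reads of Myh1 they had 5.20, 5.81 and 6.43 reads of Myh2 in control and 6.01, 7.14 and 5.31 in Yap-shRNA muscles. Both ratios overlapped between the groups. Among the 4 ratios compared, the log2 difference between groups was -0.016 for Myh1 to Myh4 (exact permutation p = 1.0), 0.062 for Myh2 to Myh4 (p = 0.60), 0.077 for Myh2 to Myh1 (p = 0.60) and -0.117 for Myh7 to Myh4 (p = 0.70).

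The developmental chains varied most between muscles, and in both groups. Myh3, the embryonic chain, gave 175, 34 and 37 reads in control and 41, 15 and 212 reads in Yap-shRNA muscles. In CPM it stood at 13.62, 2.843 and 3.036 in control and at 3.44, 1.152 and 16.91 in Yap-shRNA muscles. The 2 high libraries were control 1 and Yap-shRNA 3, 1 of each group, and the highest library was 14.7 times the lowest. The means were 6.50 ± 6.17 and 7.17 ± 8.51 CPM, and the log2 fold change was 0.12 (95% interval -1.762 to 2.007; edgeR adjusted p = 1.000).

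Myh8, the perinatal chain, gave 256, 94 and 78 reads in control and 85, 33 and 166 reads in Yap-shRNA muscles. In CPM it stood at 19.93, 7.859 and 6.4 in control and at 7.131, 2.534 and 13.24 in Yap-shRNA muscles. Control 1 and Yap-shRNA 3 were again the highest and Yap-shRNA 2 again the lowest. The means were 11.4 ± 7.42 and 7.63 ± 5.37 CPM, or 67.0% of control, and the log2 fold change was -0.59 (95% interval -1.819 to 0.639; edgeR adjusted p = 1.000). Without control 1 it was 0.094, and without Yap-shRNA 3 the log2 fold change of Myh3 was -1.536, so leaving out 1 library turned the sign of each. Both chains remained rare beside the main one, Myh8 at 0.00770 to 0.0659% of the Myh4 reads of a library and Myh3 at 0.00350 to 0.0479%.

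Other genes had their 2 highest libraries in the same muscles. Myl4, the embryonic and atrial myosin light chain, stood at 29.81, 12.21 and 9.929 CPM in control and at 12.0, 5.528 and 22.73 CPM in Yap-shRNA muscles. Tendon markers summed to 690, 183 and 131 CPM in control and 176, 149 and 568 CPM in Yap-shRNA muscles, and each of the 7 tendon markers in the table (Mkx was not in it) had control 1 and Yap-shRNA 3 above the other 4 libraries. Fibroblast markers summed to 2559, 1503 and 1255 CPM in control and 1474, 1506 and 2971 CPM in Yap-shRNA muscles, with all 6 showing that order. Of the 16 developmental and regeneration genes in the table, which include Myh3 and Myh8, 7 showed it, and of all 13226 genes 1490 did (11.3%). The order was not particular to tendon and fibroblast markers. It was also shown by 5 of 10 macrophage markers, 4 of 7 adipocyte markers, 2 of 6 slow fibre or soleus markers and 1 of 8 adult fibre markers. None of the liver, endothelial, Schwann, erythroid, smooth muscle or satellite cell markers showed it. The part of RNA from tendon, fibroblasts or any other cell type in the levels of Myh3 and Myh8 was not tested.

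**Figure D5:**
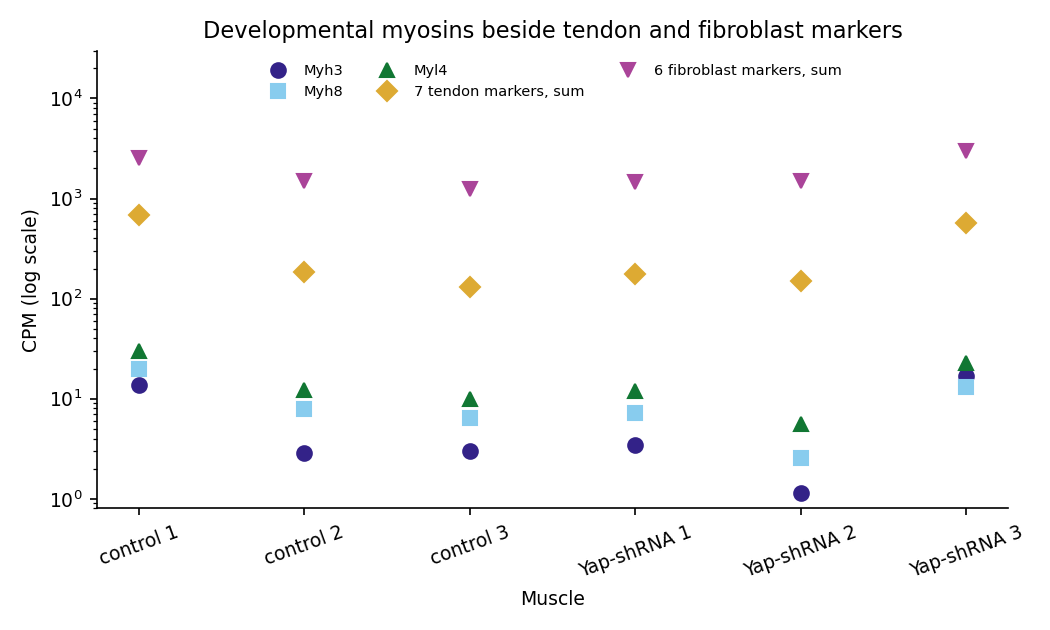
Scaled level (CPM, log axis) of Myh3, Myh8 and Myl4 and the summed tendon and fibroblast markers in each of the 6 muscles. Control 1 and Yap-shRNA 3 are the highest libraries for Myh3 (13.62 and 16.91 CPM), Myh8 (19.93 and 13.24 CPM) and the tendon markers (690 and 568 CPM).

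Without both of these libraries, an alternative chosen after the data were seen, the log2 fold change was -0.381 for Myh3, -0.579 for Myh8 and -0.145 for Myh4, and no member was called. The satellite cell markers, 4 of 5 in the table, summed to 35.9 to 41.4 CPM over all libraries. Macrophage markers summed to 236, 143 and 95.3 CPM in control and 163, 202 and 209 CPM in Yap-shRNA muscles. Markers of slow fibre or the neighbouring soleus, which include Myh7, summed to 89.0 to 148 CPM, with the lowest sum in Yap-shRNA 2, also the lowest library of Myh7. Their highest sum was in Yap-shRNA 3, whereas Myh7 was highest in Yap-shRNA 1. Liver transcripts summed to 3.42, 55.9 and 454 CPM in control and 17.7, 42.2 and 4.07 CPM in Yap-shRNA muscles. They were highest in control 3, the highest library of Myh1 and Myh2, but the other libraries did not keep that order. Yap-shRNA 3, next to control 3 in Myh1 at 6050 CPM, had 4.07 CPM of liver transcripts. The part of any of these in the myosin values was not tested.

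Other genes of the same system were counted from lists written for the purpose. Of the other 7 myosin heavy chains in the table (Myh15 was not in it), none was called, the median log2 fold change was -0.035, and the values ran from -0.29 for Myh6, the alpha chain of the heart, to 0.09 for Myh9, a non-muscle chain. Per kilobase of exon, Myh6 (0.426 ± 0.160 CPM per kilobase in control), Myh7b (0.657 ± 0.295) and Myh13, the chain of extraocular muscle (0.816 ± 0.447), were all in the range of Myh7 to Myh3, far below the adult fast chains. None of the 11 genes of the thick filament and M-line, the partners of myosin in the sarcomere, was called, and their median was -0.063, with Smpx at -0.13 and Mybph at 0.44. Titin (Ttn), which spans the sarcomere beside the thick filament, stood at 7159 ± 588 CPM in control and 7022 ± 674 in Yap-shRNA muscles.

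None of the 13 fast fibre genes was called. Their log2 fold changes were all below 0, from -0.27 for Tnnc2, the fast troponin C, to -0.00 for Atp2a1, the fast calcium pump. Under the scaling of DESeq2, 12 of 13 were below 0. Over all genes, 6769 of 13226 were below 0, and the median was -0.136 for the list against -0.003 over all genes. None of the 13 had an unadjusted p below 0.05 in edgeR's quasi-likelihood test. All were measured in the same 6 libraries, so their signs are not separate observations. Tnnc2 was counted at a low level, 6.54 ± 1.91 CPM in control and 5.46 ± 1.59 CPM in Yap-shRNA muscles. Mylk2, the next lowest of the list in level, stood at 1055 ± 63.0 CPM in control. Tnnt3, the fast troponin T, stood at 18794 ± 2345 CPM in control and 17162 ± 548 CPM in Yap-shRNA muscles. None of the 13 slow fibre genes was called either, 9 were below 0 and the median was -0.160. Of these, 2 had an unadjusted p below 0.05 and moved in opposite directions, Myl2, the slow regulatory light chain, at 0.89 (2.00 ± 0.764 CPM in control and 3.70 ± 0.378 in Yap-shRNA muscles) and Casq2, the slow calsequestrin, at -0.47 (71.8 ± 6.34 and 51.8 ± 3.64 CPM); both had an adjusted p of 1.000 in edgeR. Casq2 was chosen for mention after its values were seen. The lowest of the slow list, Pln, which restrains the slow calcium pump, stood at -0.47 as well (3.02 ± 1.37 and 2.17 ± 0.315 CPM).

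Of 10 genes for folding and assembly of myosin none was called, and the median was 0.068. Unc45b, the myosin chaperone of muscle, stood at 318 ± 22.8 CPM in control and 328 ± 29.4 CPM in Yap-shRNA muscles, and the extremes were Apobec2 at -0.16 and Hsp90aa1 at 0.32. Hsp90aa1 was low in level, at 4.03 ± 0.291 CPM in control and 5.01 ± 1.49 CPM in Yap-shRNA muscles. Of 32 regulators of fibre type none was called, with a median of 0.033 and values from -0.15 for Eya4 to 0.21 for Nfatc2, a transcription factor of the calcineurin pathway. Of 16 developmental and regeneration genes (Mymk and Mymx were not in the table) none was called, and the values ran from -1.14 for Actc1, the cardiac actin of embryonic muscle (adjusted p = 1.000 in edgeR, unadjusted 8.97e-04), to 1.03 for Chrng, the fetal subunit of the acetylcholine receptor. Chrng was rare, at 0.846 ± 0.754 CPM in control and 1.80 ± 1.44 CPM in Yap-shRNA muscles, and varied 18.6-fold between libraries. Actc1 stood at 374, 481 and 341 CPM in control and at 125, 255 and 161 CPM in Yap-shRNA muscles without overlap, and it was called by the likelihood ratio test of edgeR. Ankrd1, a stress-responsive protein of the sarcomere named here after its values were seen, was called without control 1 and Yap-shRNA 3 together. Over all 6 libraries it stood at 18.5 ± 14.2 CPM in control and 32.6 ± 6.84 CPM in Yap-shRNA muscles.

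The genes whose level over the 6 libraries was most like that of each adult chain were read off as a description among 7265 genes, which share the libraries and their depth. For Myh4 they were Rai2 (Pearson r = 0.994), Wfdc1 (0.992) and Dnajb14 (0.987). For Myh1 they were Smim14 (0.988), Uap1 (0.983) and Fez2 (0.966), and for Myh2 they were Rbbp5 (0.988), Ergic2 (0.987) and Homer2 (0.986). For Myh7 they were Ythdf2 (0.990), Cobl (0.977) and Cdv3 (0.970). With 6 libraries and so many genes, such values carry no test, and the members themselves were left out of the search.

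How far reads could be shared between the chains was measured on the annotated transcripts. Of all runs of 50 bases, 26.7% in Myh1, 26.9% in Myh2, 21.4% in Myh8 and 18.9% in Myh4 also stood in a transcript of another sarcomeric myosin heavy chain, and 4.81% in Myh3. In Myh7 it was 22.2%, every such run being found in Myh6. For runs of 100 bases it was 9.73% in Myh1, 3.85% in Myh4 and 1.15% in Myh3. Myh1 and Myh2 were the closest pair among the fast chains, with 19.7% of the runs of 50 bases of Myh1 in Myh2. The length of the reads and the handling of reads that match more than 1 gene are not given in the sources used here, so the low levels of Myh8 and Myh2 beside the far more abundant Myh4 and Myh1 are uncertain in their absolute size.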

How the data were processed

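The 6 libraries, 3 control and 3 Yap-shRNA, were whole TA muscles, grouped by the labels. The values deposited by the authors are counts of reads on each gene, not normalised. The submitters' processing notes name bcl2fastq 2.20.0.422 and the build GRCm38, while aligner, counter and strand setting are not given in the sources used here. Totals ranged from 11987167 to 12710393 counts, and no gene had fewer than 60 reads over the libraries. All columns were matched to samples by name. Counts were scaled by TMM and tested over 13226 genes with edgeR 4.0.16 (quasi-likelihood test, R 4.3.3, group as the only term, Benjamini-Hochberg adjustment, threshold 0.05). Shares and ratios (0.5 reads added) were compared with exact two-sided permutation tests over libraries, whose smallest p is 0.10. The p-values measure only the spread between these muscles. Positions came from GENCODE M21 and promoter windows from RefSeq (all 6 genes matched). Shared runs of bases were counted between annotated transcripts.

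On simulated counts for this comparison over 13226 genes, the quasi-likelihood test recovered 57 of 98 genes changed by 1 on the log2 scale and 93 of 102 changed by 2. It also called 7 unchanged genes. These counts were drawn for each gene on its own, without the pattern shared by control 1 and Yap-shRNA 3. Recovery in the muscles themselves may be lower, where Yap1 at -1.10 had an adjusted p of 0.424 by that test. The members and lists were chosen with earlier results of these data known. The genes named are the 6 members, Yap1, the lowest and highest genes of each list, up to 4 genes of a list in their written order, and the 3 genes of at least 10 CPM most correlated with each adult chain. Myl4, Casq2, Ankrd1, 9430073C21Rik and 2310065F04Rik were chosen after their values were seen. Alternatives were DESeq2 1.42.0, limma-voom (limma 3.58.1), the likelihood ratio test, the legacy form of the test, other scalings and filters, a threshold of 0.01, a replicate block, coding length, 5 reads added to ratios, and leaving out each library.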

Additional observations from a re-analysis of the deposited data

How the results depend on the processing

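No alternative called a myosin heavy chain among those it tested, which were all 6 except that Myh7 did not pass the filter of at least 10 counts in every library. Over all genes, the count past the threshold was 0, against 5 by DESeq2, 5 by the likelihood ratio test, 2 with the replicate block, 0 to 1 when 1 library was left out (Mir155hg without Yap-shRNA 3) and 3 without control 1 and Yap-shRNA 3 together, an alternative chosen after the data were seen. The cause of these differences was not tested. Muscles with the same number had correlations of -0.0255, 0.2226 and -0.2125 in how genes deviated from the mean of their group. Those of muscles with different numbers ran from -0.3149 (control 1 with Yap-shRNA 2) to 0.3065 (control 1 with Yap-shRNA 3). The highest value was thus from the muscles that shared high Myh3 and Myh8. These correlations do not decide the pairing. Whether the number is the animal is not known, and pairing by number was used as an alternative only. With the replicate block the log2 fold change was -0.039 for Myh1, 0.038 for Myh2, -0.020 for Myh3, -0.023 for Myh4, 0.054 for Myh7 and -0.602 for Myh8.

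Signs turned between settings, of values near 0 and also of Myh8, whose log2 fold change was -0.590 with all libraries and 0.094 without control 1. With 1 library left out, 12 log2 fold changes of the members turned sign and 24 did not. The log2 fold change of Myh3 was -0.302 by limma-voom and -0.381 without both libraries, that of Myh7 was -0.161 by limma-voom, that of Myh2 was -0.113 without both libraries, and the share difference of Myh3 without both was -9.15e-04 points. With 1 library left out, log2 fold changes ranged from -0.121 to 0.106 for Myh1, from -0.125 to 0.230 for Myh2, from -1.536 to 1.281 for Myh3, from -0.092 to 0.028 for Myh4, from -0.557 to 0.476 for Myh7 and from -1.261 to 0.094 for Myh8. Share differences then ranged from -1.05 to 1.16 points for Myh1, from -0.0241 to 0.122 for Myh2, from -0.0113 to 0.0105 for Myh3, from -1.21 to 1.08 for Myh4, from -0.00144 to 0.00186 for Myh7 and from -0.0183 to 0.00201 for Myh8. Log2 ratio differences ranged from -0.133 to 0.140 for Myh1 to Myh4, from -0.045 to 0.232 for Myh2 to Myh4, from -0.036 to 0.178 for Myh2 to Myh1 and from -0.678 to 0.430 for Myh7 to Myh4. Per kilobase of coding sequence the control level was 0.289 for Myh7 and 1.96 for Myh8. Myh7 had 9 to 37 reads in a library.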

Other observations

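2310065F04Rik, a long non-coding RNA gene on the minus strand between Myh3 and Myh2 (chr11:67112461-67120080, GRCm38), was picked after its values were seen. It stood at 118.3, 190.7 and 94.53 CPM in control muscles and at 116.5, 168.9 and 60.53 CPM in Yap-shRNA muscles. Its highest library in each group was replicate 2, the lowest of Myh1 among the Yap-shRNA muscles, and its lowest was replicate 3, the highest of Myh1 in both groups. The groups overlapped and its log2 fold change was -0.22 (edgeR adjusted p = 1.000).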
